A study of Mus musculus with 12 samples.

Results

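Triglyceride synthesis and lipid droplet coating were followed in mouse liver through 9 genes: Gpam, Agpat2, Lpin1, Lpin2, Mogat1, Dgat1 and Dgat2, which encode enzymes, and Plin2 and Cidec, which encode droplet proteins. They were chosen by name, as genes that a probe set on the array annotates alone, and each is read from its brightest such probe set over all arrays. All 9 were measured, by 16 probe sets, among 18193 genes in all. RNA of livers from male mice was hybridised to 12 single-colour arrays, in 4 groups of 3: Nrf2 null given CDDO-Im, Nrf2 null given vehicle, wild type given CDDO-Im and wild type given vehicle. CDDO-Im, the imidazolide of the synthetic triterpenoid CDDO and a known activator of Nrf2, was labelled at 30 uM/kg, and all mice were dosed by gavage 6 hours earlier. Nrf2, the product of Nfe2l2, is a transcription factor best known for its antioxidant and detoxifying target genes. Age, strain and the way the Nrf2 allele was made are not given in the sources used here, nor whether each array is a separate animal, so the p-values cover only how these arrays vary, which may be technical.

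The liver makes triglyceride stepwise in the membrane of the endoplasmic reticulum and on mitochondria. Glycerol phosphate takes up a first and then a second fatty acid, the phosphate is removed by lipins to give diacylglycerol, and the last fatty acid is added by a diacylglycerol acyltransferase. The product is packed into lipid droplets, which carry a coat of perilipins and grow by transfer between droplets, or is exported in very low density lipoprotein. These genes are well known in hepatocytes from fasting, refeeding and fatty liver.

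With CDDO-Im, Dgat2, Dgat1 and Lpin2 rose and Agpat2 fell in Nrf2 null livers, while in wild type livers Lpin2 alone rose. In Nrf2 null livers Dgat2 was 1.86-fold, Lpin2 1.78-fold and Dgat1 1.43-fold higher with CDDO-Im than with vehicle, and Agpat2 was 1.54-fold lower. In wild type livers Lpin2 was 1.85-fold higher with CDDO-Im. No member passed the test of the difference between the 2 genotypes' effects, and none passed between Nrf2 null and wild type livers under either treatment. Passing means a p under 0.05 after Benjamini-Hochberg adjustment across the 18193 genes, by limma's moderated test (two-sided), which shares 1 estimate of spread over the 4 groups.

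The arrays were of like brightness, with medians between 5.77 and 5.83 log2 units, and some stood apart. Nfe2l2 read 4.44 to 4.96 on the 6 Nrf2 null arrays, against 8.37 to 9.14 on the 6 wild type arrays. Nqo1, an Nrf2 target that reduces quinones, read 7.15, 7.18 and 7.26 in wild type livers with CDDO-Im, against 5.12, 5.06 and 5.19 with vehicle. Wild type vehicle replicate 3 nevertheless stood apart from its group, towards the CDDO-Im arrays, for some metabolic genes: Car3 read 12.94 there and 7.63 and 6.99 in replicates 1 and 2, and Fabp4 8.55 there and 11.91 and 11.88. The wild type CDDO-Im arrays read 11.32, 11.84 and 11.86 for Car3 and 7.29, 6.33 and 7.53 for Fabp4, so Fabp4 on that array lay between the groups. Transcripts of pancreatic acinar cells were present on wild type vehicle replicate 3, with a mean over 8 of 9 listed markers of 10.80, and on Nrf2 null vehicle replicate 2, at 9.17. By group this mean ran from 6.70 to 6.84 in Nrf2 null CDDO-Im, 6.69 to 9.17 in Nrf2 null vehicle, 6.50 to 6.74 in wild type CDDO-Im and 6.52 to 10.80 in wild type vehicle. Hepatocyte markers averaged 13.47 to 13.79 on all arrays, and none of the 7 passed in any comparison. Of 5 measured adipocyte markers among 7 listed, the hormone Adipoq alone read below the array median on all 12 arrays. The hormone Lep averaged 5.70, 5.73, 5.75 and 5.74 in Nrf2 null CDDO-Im, Nrf2 null vehicle, wild type CDDO-Im and wild type vehicle. It lay below the array median on 3, 2, 1 and 2 arrays of these groups. The hormone Retn averaged 7.54, 7.48, 7.55 and 7.47 in the same order. Fabp4 and Car3, which are also adipocyte markers, changed with CDDO-Im. Fabp4 fell to 5.99 ± 0.31 in Nrf2 null livers with CDDO-Im, against 11.73 ± 0.31 with vehicle, and to 7.05 ± 0.64 in wild type livers, against 10.78 ± 1.93 (SD, n = 3 each, adjusted p = 0.00407 and 0.0217, limma). Car3 rose in Nrf2 null livers, to 12.78 ± 1.08 with CDDO-Im, against 8.02 ± 0.26 with vehicle (adjusted p = 0.0365, limma). Its wild type means of 11.67 ± 0.30 with CDDO-Im and 9.18 ± 3.27 with vehicle did not differ by a passing amount.

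Of 5 neutrophil markers 2 fell in Nrf2 null livers with CDDO-Im, the comparison that held 4 of the members' 5 calls. The mean of the 5 listed markers was 6.31 to 6.42 in Nrf2 null livers with CDDO-Im, against 6.66 to 7.02 with vehicle, and 6.14 to 6.40 in wild type livers with CDDO-Im, against 6.39 to 6.62 with vehicle. S100a8 and S100a9, which encode calcium-binding proteins of neutrophils, fell in Nrf2 null livers, by 1.27 and 0.95 on the log2 scale (adjusted p = 0.011 and 0.0276, limma). S100a8 lay below the array median on all 3 arrays of every group except Nrf2 null vehicle, where 1 array did. The other 3 did not pass, Ngp and Camp averaging slightly higher and Elane lower with CDDO-Im in Nrf2 null livers. No neutrophil marker passed in wild type livers. Among 6 Kupffer cell markers Marco alone passed, lower in Nrf2 null than in wild type livers under CDDO-Im at -1.32, and none of 5 stellate cell markers passed. The part of these cells in the members' differences was not tested. The titles of the vehicle arrays, unlike the others, end in a bracketed digit of unstated meaning, and a condition behind it and the compound cannot be told apart. In whole liver, fewer cells of a type and less RNA per cell cannot be told apart.

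**Figure D1:**
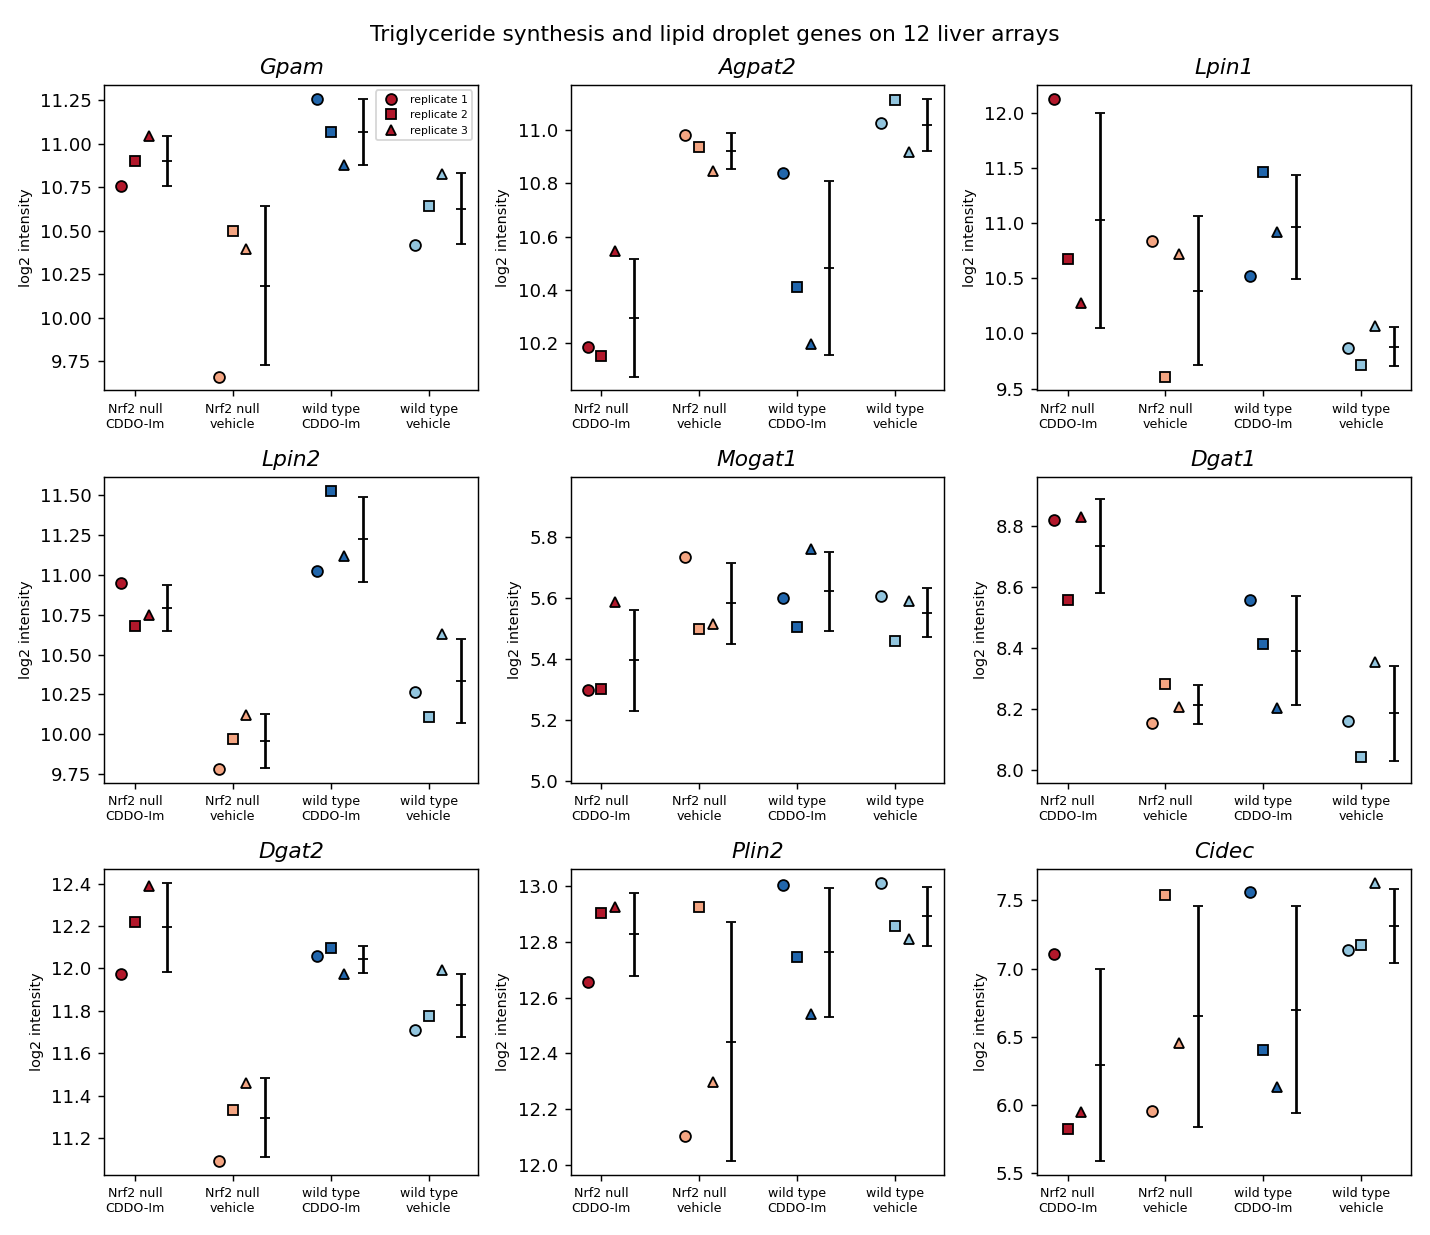
Log2 intensity (y axis, a different range in each panel) of the 9 genes on each array, by group (x axis), with symbols for the replicate and a bar for the mean ± SD of 3 arrays. The Nrf2 null CDDO-Im arrays lie above the Nrf2 null vehicle arrays for Gpam, Lpin2, Dgat1 and Dgat2 and below them for Agpat2.

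Gpam encodes the mitochondrial glycerol-3-phosphate acyltransferase that adds the first fatty acid. It read 10.76, 10.90 and 11.04 in Nrf2 null livers with CDDO-Im, against 9.66, 10.50 and 10.39 with vehicle (log2 intensity). The groups did not overlap, and replicate 1 of the vehicle group was the lowest of all 12 arrays. The difference of 0.72 ± 0.19 (SE, adjusted p = 0.0518, limma) did not pass. Gpam in wild type livers read 11.26, 11.07 and 10.88 with CDDO-Im, against 10.42, 10.64 and 10.82 with vehicle, again without overlap, and the difference of 0.44 ± 0.19 did not pass (adjusted p = 0.34, limma). Without wild type vehicle replicate 3 and Nrf2 null vehicle replicate 2 together, the Nrf2 null difference was 0.87 and passed (adjusted p = 0.0224, limma), and it passed in 7 of 22 alternative analyses in all, among them without wild type vehicle replicate 3 alone (adjusted p = 0.0352). A dimmer probe set of Gpam differed by 0.63 in Nrf2 null and 0.53 in wild type livers, and did not pass either.

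Agpat2 adds the second fatty acid, giving phosphatidate, and its loss in people and mice leads to lipodystrophy with fatty liver. It read 10.19, 10.15 and 10.55 in Nrf2 null livers with CDDO-Im, against 10.98, 10.93 and 10.85 with vehicle. All 3 CDDO-Im arrays lay lower, and the gene fell by 0.62 ± 0.15 on the log2 scale (SE, adjusted p = 0.0328, limma). Wild type livers gave 10.84, 10.41 and 10.20 with CDDO-Im, against 11.02, 11.11 and 10.92 with vehicle. These groups did not overlap either, with replicate 1 of the CDDO-Im group close to the vehicle range, and the difference of -0.54 ± 0.15 did not pass (adjusted p = 0.1, limma). The call in Nrf2 null livers rested on all of its arrays: leaving out any one of the 6 gave an adjusted p between 0.0504 and 0.116. In wild type livers Agpat2 passed without CDDO-Im replicate 1, at -0.71 (adjusted p = 0.0234, limma), and with arrays weighted by their quality, at -0.56 (adjusted p = 0.0183). Agpat2 lies on chromosome 2, as does Nfe2l2, and differed by -0.10 under vehicle and -0.19 under CDDO-Im between Nrf2 null and wild type livers.

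The lipins remove phosphate from phosphatidate. Lipin 1 also acts in the nucleus with PGC-1 alpha and PPAR alpha, and lipin 2 is abundant in liver. Lpin2 read 10.95, 10.68 and 10.75 in Nrf2 null livers with CDDO-Im, against 9.78, 9.97 and 10.12 with vehicle. It read 11.02, 11.53 and 11.12 in wild type livers with CDDO-Im, against 10.27, 10.11 and 10.63 with vehicle. Every CDDO-Im array lay above every vehicle array of its genotype, and wild type vehicle replicate 3 was the highest of the 6 vehicle arrays. Lpin2 rose by 0.84 ± 0.16 in Nrf2 null (SE, adjusted p = 0.0136, limma) and by 0.89 ± 0.16 in wild type livers (adjusted p = 0.0146). The effect in Nrf2 null minus that in wild type was -0.05, with a 95% confidence interval of -0.54 to 0.43. Without wild type vehicle replicate 3 the wild type rise was 1.03 (adjusted p = 0.00116, limma).

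Lpin2 had 3 further probe sets. Those of middling brightness rose in both genotypes, by 0.71 and 0.95 in Nrf2 null and by 1.20 and 1.12 in wild type livers, when every probe set was tested as its own row. Their effects in Nrf2 null minus those in wild type were -0.49 ± 0.25 and -0.17 ± 0.22 (SE), and did not pass. The dimmest, which read 3.65 to 4.15 on all arrays and so below every array median, did not pass. The wild type call of the main probe set was lost without wild type vehicle replicate 1 (adjusted p = 0.0841), vehicle replicate 2 (0.0799) or CDDO-Im replicate 2 (0.0609), and when the wild type arrays were fitted alone (0.095). In Nrf2 null livers it was lost without vehicle replicate 1 (adjusted p = 0.0613) or CDDO-Im replicate 3 (0.0551).

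Lpin1 had the largest standard error of the 7 enzyme genes. It read 12.13, 10.68 and 10.27 in Nrf2 null livers with CDDO-Im, against 10.84, 9.61 and 10.72 with vehicle. Replicate 1 of the CDDO-Im group stood far above the rest, and the groups overlapped. Lpin1 in wild type livers read 10.52, 11.46 and 10.92 with CDDO-Im, against 9.87, 9.71 and 10.06 with vehicle, and these groups did not overlap. The difference in wild type livers, 1.09 ± 0.44 (SE, adjusted p = 0.283, limma), was the highest of the 9 members there and did not pass. In Nrf2 null livers it was 0.64 ± 0.44 (adjusted p = 0.491), and 0.09 without CDDO-Im replicate 1.

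The 250 bases before the annotated start are shown for the lipins, which share a function, and for Agpat2, which moved the other way. Sequences are from RefSeq on GRCm38.p6, whose table held windows for 7 of the 9 members. They are read 5′ to 3′ on the strand of the gene, with capitals for a match to CACGTG, the E-box bound by helix-loop-helix factors.
Lpin2, chr17:71183282-71183531, plus strand: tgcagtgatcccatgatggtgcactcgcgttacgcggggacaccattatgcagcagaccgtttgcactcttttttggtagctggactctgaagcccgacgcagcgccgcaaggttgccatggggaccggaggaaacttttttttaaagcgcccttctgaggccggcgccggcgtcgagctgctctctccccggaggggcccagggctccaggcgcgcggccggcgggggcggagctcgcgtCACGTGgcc
Lpin1, chr12:16610967-16611216, minus strand: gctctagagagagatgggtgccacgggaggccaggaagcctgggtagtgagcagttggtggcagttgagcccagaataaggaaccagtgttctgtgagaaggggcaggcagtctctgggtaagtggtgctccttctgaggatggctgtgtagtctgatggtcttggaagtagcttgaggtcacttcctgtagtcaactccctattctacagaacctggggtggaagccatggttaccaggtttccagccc
Agpat2, chr2:26604418-26604667, minus strand: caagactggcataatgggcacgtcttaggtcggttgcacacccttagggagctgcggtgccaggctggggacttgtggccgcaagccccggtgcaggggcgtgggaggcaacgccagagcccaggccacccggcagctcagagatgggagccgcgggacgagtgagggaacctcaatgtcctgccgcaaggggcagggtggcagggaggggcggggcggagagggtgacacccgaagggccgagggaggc
CACGTG was found in 1 of the 11 member windows, that of Lpin2 shown here, where its first base lies 9 bases before the start, and in 6.02% of all 32851 windows. Lpin2 has 2 further annotated starts, without a match. Neither TGACNNNGC, the core of the antioxidant response element bound by Nrf2, nor the repeat bound by PPAR with RXR (AGGTCA, any 1 base, AGGTCA) was found in a member window on either strand. They were found in 10.2% and 0.0335% of all windows, and no match says only that these letters are not in these windows.

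Mogat1 makes diacylglycerol from monoacylglycerol, a route known in mice from fatty liver. Its probe set read 5.30, 5.30 and 5.59 in Nrf2 null livers with CDDO-Im, against 5.74, 5.50 and 5.52 with vehicle. Wild type livers gave 5.60, 5.51 and 5.76 with CDDO-Im, against 5.61, 5.46 and 5.59 with vehicle. All 12 values lay below the median of their array, the groups overlapped, and no comparison passed.

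Dgat1 and Dgat2 add the last fatty acid, by unrelated proteins, and Dgat2 is known in liver for using newly made fatty acids. Dgat2 read 11.97, 12.22 and 12.39 in Nrf2 null livers with CDDO-Im, against 11.09, 11.33 and 11.46 with vehicle. Wild type livers gave 12.06, 12.10 and 11.97 with CDDO-Im, against 11.71, 11.78 and 11.99 with vehicle. The Nrf2 null vehicle arrays were the 3 lowest of the 12, and the wild type groups overlapped through vehicle replicate 3. Dgat2 rose by 0.90 ± 0.12 in Nrf2 null livers (SE, adjusted p = 0.0054, limma), and its call held in all 22 alternative analyses. The wild type difference was 0.22 ± 0.12 (adjusted p = 0.498), or 0.30 without vehicle replicate 3. The effect in Nrf2 null minus that in wild type was 0.68, with a 95% interval of 0.31 to 1.06 for this gene alone, and did not pass over all genes (adjusted p = 0.275, limma). A second, dimmer probe set of Dgat2 rose by 0.72 in Nrf2 null livers (adjusted p = 0.0173, limma). Its effect in Nrf2 null minus that in wild type was smaller, at 0.43 ± 0.20 (SE, adjusted p = 0.772, limma), and did not pass either.

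Dgat1 read 8.82, 8.56 and 8.83 in Nrf2 null livers with CDDO-Im, against 8.15, 8.28 and 8.21 with vehicle. Dgat1 in wild type livers read 8.56, 8.41 and 8.20 with CDDO-Im, against 8.16, 8.04 and 8.35 with vehicle. The Nrf2 null groups were apart and the wild type groups overlapped. Dgat1 rose by 0.52 ± 0.11 in Nrf2 null livers (SE, adjusted p = 0.0217, limma), and differed by 0.20 ± 0.11 in wild type livers (adjusted p = 0.48). The Nrf2 null call was lost without vehicle replicates 1 or 2 or CDDO-Im replicates 1 or 3, with an adjusted p of 0.0858, 0.0549, 0.0582 and 0.0964. A second probe set of Dgat1, at 6.15 on average, differed by -0.08 in Nrf2 null livers and did not pass. The mean of both probe sets differed by 0.22 and did not pass (adjusted p = 0.137, limma).

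**Figure D2:**
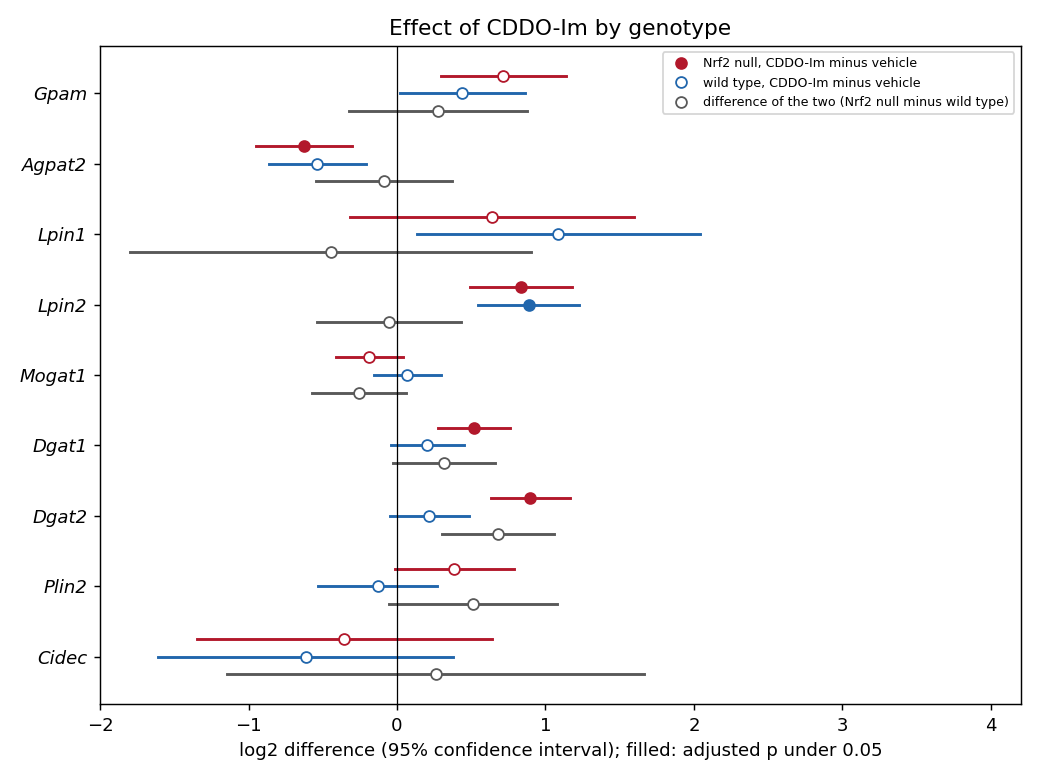
Log2 difference between CDDO-Im and vehicle (x axis) for each gene, in Nrf2 null livers (red), in wild type livers (blue) and the Nrf2 null minus the wild type effect (grey), with 95% confidence intervals from the fit and filled circles where the adjusted p was under 0.05. Lpin2 is filled in both genotypes, Dgat1, Dgat2 and Agpat2 in Nrf2 null alone, and no grey circle is filled.

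Plin2 encodes the main coat protein of liver lipid droplets. It read 12.65, 12.90 and 12.92 in Nrf2 null livers with CDDO-Im, against 12.10, 12.92 and 12.30 with vehicle. Plin2 in wild type livers read 13.00, 12.75 and 12.54 with CDDO-Im, against 13.01, 12.86 and 12.81 with vehicle. Vehicle replicate 2 of the Nrf2 null group, which carried acinar transcripts, read as high as the CDDO-Im arrays. The Nrf2 null difference of 0.39 ± 0.18 (SE, adjusted p = 0.277, limma) did not pass with all arrays. Without that array it was 0.63 and passed narrowly (adjusted p = 0.0494), and without both arrays that carried acinar transcripts the adjusted p was 0.0234. The wild type difference was -0.13 ± 0.18 (adjusted p = 0.855).

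Cidec, known from fat tissue and fatty liver, promotes the fusion of lipid droplets. It read 7.11, 5.83 and 5.95 in Nrf2 null livers with CDDO-Im, against 5.95, 7.54 and 6.45 with vehicle. Wild type arrays gave 7.56, 6.40 and 6.13 with CDDO-Im, against 7.14, 7.17 and 7.63 with vehicle. The arrays that carried acinar transcripts gave the highest value of each vehicle group, and their part in this was not tested. Neither difference passed, at -0.35 ± 0.45 in Nrf2 null (SE, adjusted p = 0.756, limma) and -0.61 ± 0.45 in wild type livers (adjusted p = 0.649), and the Nrf2 null difference was 0.09 without those arrays.

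Over the 9 members, 3 rose and 1 fell with CDDO-Im in Nrf2 null livers, where 5.9% of all genes passed, 3.58% higher and 2.32% lower. In wild type livers 1 rose and none fell, where 1.82% of all genes passed, 0.978% higher and 0.846% lower. The median difference of the members was 0.52 in Nrf2 null and 0.20 in wild type livers, beside medians over all genes of -0.00495 and 0.00585. The groups did not overlap for 5 of 9 members in Nrf2 null livers, 4 higher and 1 lower, against 23.1% of all genes (11.6% higher, 11.4% lower). They did not overlap for 4 of 9 in wild type livers, 3 higher and 1 lower, against 16.6% (8.42% higher, 8.18% lower). No exact permutation test of 3 against 3 arrays can go below a two-sided p of 0.1. Without both arrays that carried acinar transcripts, 5 members rose and none fell in Nrf2 null livers, Gpam and Plin2 having joined and Agpat2 having dropped out (-0.62, adjusted p = 0.0663, limma), and 1 rose in wild type livers. Over all genes 1155 then passed in Nrf2 null livers, against 1074 with all arrays. The members' count in Nrf2 null livers was 1 without vehicle replicate 1, 1 without CDDO-Im replicate 3 and 2 without CDDO-Im replicate 1. All genes that passed numbered 249, 97 and 914 in these fits, so the first 2 drops came with a general loss of calls.

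Between genotypes no member passed limma's test. Under vehicle 0.39% of all genes passed (0.115% higher, 0.275% lower in Nrf2 null), and 4 of the 9 members had an unadjusted p under 0.05, as had 13.2% of all genes: Dgat2, Gpam, Lpin2 and Plin2, all lower in Nrf2 null livers. Dgat2 differed most clearly, by -0.53 ± 0.12 (SE, adjusted p = 0.0945, limma), and was the only member whose Nrf2 null and wild type vehicle arrays did not overlap, as was so for 17% of all genes, 8.55% higher and 8.49% lower. With array weights it passed, at -0.45 (adjusted p = 0.021). Gpam differed by -0.44, Plin2 by -0.45 and Lpin2 by -0.38 under vehicle. Under CDDO-Im, where 1.45% of all genes passed (0.621% higher, 0.824% lower), 3 members had an unadjusted p under 0.05, as had 11.3% of all genes. Dgat1 differed by 0.34 and Lpin2 by -0.43, both without overlap between the genotypes (16.8% of all genes, 9.01% higher and 7.82% lower), and Mogat1 by -0.23 at values below the array medians. The Dgat1 groups were barely apart, with the nearest arrays at 8.557 in Nrf2 null and 8.556 in wild type livers. For the Nrf2 null minus the wild type effect, where 0.137% of all genes passed (0.011% higher, 0.126% lower), Dgat2 was the only member with an unadjusted p under 0.05, as had 7.1% of all genes. Comparisons that share a group of arrays share its deviations.

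Other genes of triglyceride metabolism were taken from 5 lists by role, with 39 of 42 genes measured. With CDDO-Im 8 rose and none fell in Nrf2 null livers, where 3.58% of all genes passed higher and 2.32% lower. There 19 of the 39 had an unadjusted p under 0.05, against 19.4% of all genes. In wild type livers none passed limma's test and 6 had an unadjusted p under 0.05, a share near the 13.6% of all genes. The medians were 0.14 in Nrf2 null and -0.05 in wild type livers. Of 7 genes of triglyceride breakdown 3 rose in Nrf2 null livers. Lipa, the lysosomal acid lipase, rose by 1.10 ± 0.14 (SE, adjusted p = 0.00499, limma), Mgll, which cleaves monoacylglycerol, by 1.16 ± 0.28, and Ces1d, a carboxylesterase that hydrolyses stored triglyceride, by 3.15 ± 0.64.

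Of 12 other droplet proteins 2 rose in Nrf2 null livers. Fitm2, which helps droplets to bud, rose by 0.93 ± 0.18 (SE, adjusted p = 0.0145, limma) and Hsd17b11, a droplet-bound dehydrogenase, by 0.84 ± 0.22 (adjusted p = 0.0486). G0s2, an inhibitor of the droplet lipase Pnpla2, read 9.41, 10.34 and 10.89 with CDDO-Im, against 7.38, 8.59 and 9.68 with vehicle, in Nrf2 null livers. Wild type arrays gave 8.92, 9.36 and 9.07 with CDDO-Im, against 10.57, 10.21 and 9.58 with vehicle. The Nrf2 null difference of 1.67 and the wild type difference of -1.004 had opposite signs and did not pass, nor did the difference between them, 2.67 (adjusted p = 0.305, limma).

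Among 9 other acyltransferases and phosphatases, Gpat4, an acyltransferase of the endoplasmic reticulum, was the only one to rise in Nrf2 null livers, by 0.59 ± 0.12 (SE, adjusted p = 0.0205, limma). Among 4 measured genes of substrate supply none passed. Among 7 regulators, Ppara, the receptor that drives fatty acid oxidation, rose by 1.22 ± 0.20 and Cebpa, a hepatocyte transcription factor, by 0.59 ± 0.15 in Nrf2 null livers. Under vehicle Ppara read lower in Nrf2 null than in wild type livers, by -1.13 ± 0.20 (SE, adjusted p = 0.0414, limma), the only one of the 39 genes that passed between genotypes with all arrays. Ppara averaged 10.74 with CDDO-Im and 9.52 with vehicle in Nrf2 null livers, and 10.50 and 10.65 in wild type livers. The low Nrf2 null vehicle arrays thus enter both of its passing differences. The count under vehicle ran from 0 to 2 with 1 array left out, and that over all genes from 19 to 219. The pathway count was 0 without wild type vehicle replicate 1 or 2, wild type CDDO-Im replicate 1 or 3, Nrf2 null vehicle replicate 1 or 2, or Nrf2 null CDDO-Im replicate 2, and 2 without Nrf2 null CDDO-Im replicate 3. It was 7 with array weights, where 1477 of all genes passed, against 71 in the main fit. Under CDDO-Im it was 0, where 263 of all genes passed, or 1 without wild type vehicle replicate 3, where 464 passed.

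**Figure D3:**
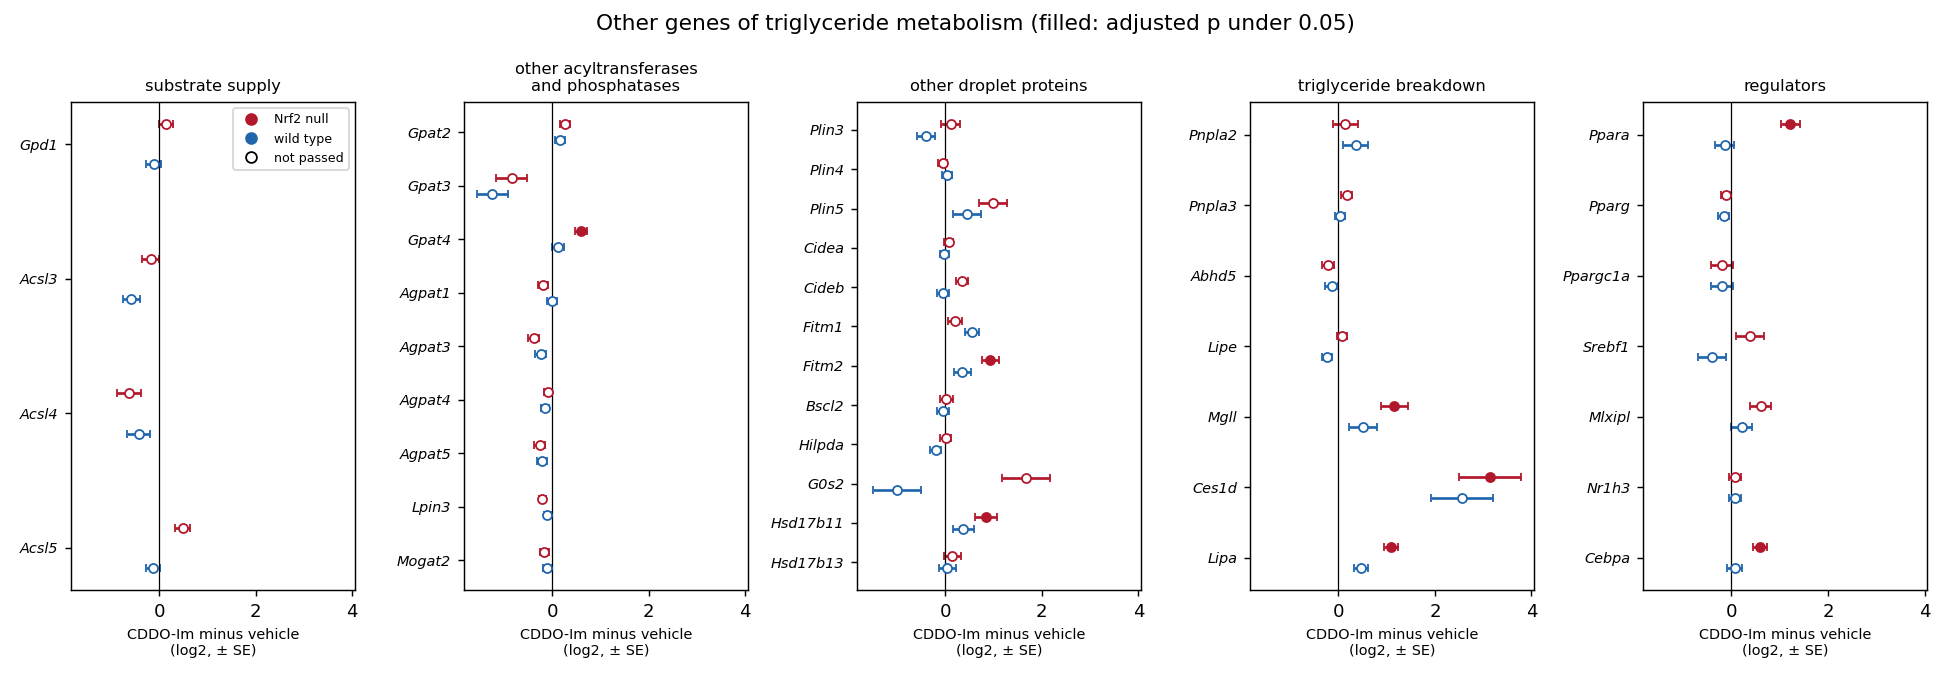
Log2 difference between CDDO-Im and vehicle (x axis, ± SE of the fit) for 39 other genes of triglyceride metabolism in 5 panels by role, in Nrf2 null (red) and wild type livers (blue), filled where the adjusted p was under 0.05. All 8 filled circles belong to Nrf2 null livers and lie above 0.

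The count of these pathway genes moved with the arrays. Without wild type vehicle replicate 3, 4 rose and 2 fell in wild type livers: Ces1d by 3.55, Fitm1 by 0.70, Lipa by 0.59 and Fitm2 by 0.56 rose, and Gpat3, an acyltransferase, at -1.66 and Plin3, a perilipin, at -0.63 fell. These genes are named because they passed there, after their values were seen. Gpat3 also fell in Nrf2 null livers in that fit, by 0.84 ± 0.21 (SE, adjusted p = 0.0307, limma). There 1615 of all genes passed in Nrf2 null livers, 900 higher and 715 lower. Without that array 1385 of all 18193 genes passed in wild type livers, 504 higher and 881 lower, against 332 with all arrays. Ces1d read 10.92 on that array, against 8.10 and 7.87 in vehicle replicates 1 and 2. In Nrf2 null livers the count was 1 without CDDO-Im replicate 3, 2 without vehicle replicate 1, 4 without vehicle replicate 2 or CDDO-Im replicate 2, and 5 without wild type CDDO-Im replicate 2. Over all genes 97, 249, 348, 278 and 870 passed in these fits, in that order, against 1074 with all arrays. With any 1 array left out, the pathway count in Nrf2 null livers ran from 1 to 9. Without both arrays that carried acinar transcripts the pathway count was 8 in Nrf2 null livers and 6 in wild type livers, where 1155 and 1293 of all genes passed. With array weights, 3 pathway genes rose and 4 fell in wild type livers, where 2023 of all genes passed, 815 higher and 1208 lower.

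The genes most like a member were taken by Pearson correlation over the 12 arrays, which share the same treatments, as a description. For Dgat2 they were Mtfp1 (0.98), Ergic2 (0.98) and Nit2 (0.97), and for Lpin2 Srsf4 (0.98), Fmo1 (0.97) and Tmem33 (0.96). For Agpat2 they were Plekhg6 (0.93), Mrps12 (0.90) and Prcp (0.90), and for Dgat1 Usp3 (0.94), Ndufv1 (0.93) and Utp14a (0.92). For Gpam they were Rab7, Ndufaf6 and Pus1 (all 0.96), and for Plin2 Nceh1 (0.95), Chkb (0.90) and Slc25a47 (0.89). Lpin1 was most like Impact (0.90), Gin1 (0.89) and Slc43a3 (0.87), and Mogat1 most like Ermn (0.87), Khdc1b (0.87) and Glod5 (0.86). Cidec had the lowest of these correlations, with Psmd6, Gpx7 and Psmd1 (all 0.81).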

How the data were processed

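The deposited values are log2 intensities of probe sets. The submitters' processing notes name RMA, without a version. Of 45101 probe sets on each array, 34945 named 1 gene, 932 several and 9160 none, and 64 were controls. No probe set named a member among several genes. Symbols were checked by Entrez Gene id against the RefSeq annotation of GRCm38.p6, which changed 0 of 34741 matched. Dim genes were kept, and the number of arrays limits the precision.

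The 4 group means were estimated together from the 12 arrays in limma 3.58.1 (R 4.3.3), and the code was tested on simulated data. The error beside a difference is its fitted standard error. Groups and replicate numbers came from the titles. All members are given with values, and for each member up to 3 most like genes. Of the other lists, values are given for genes that passed in a comparison or an alternative fit. G0s2, Retn and Lep, which passed in none of the comparisons, are given as well. The members, lists and alternatives were chosen with earlier results of these data known.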

Additional observations from a re-analysis of the deposited data

How the results depend on the processing

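The 5 counts of all genes and of members are given here in the order Nrf2 null effect, wild type effect, vehicle genotypes, CDDO-Im genotypes and difference of effects. All moves beyond 1.5 times are listed, except that fits with 1 array left out are given as ranges. Testing every probe set gave 545 calls for the wild type effect, 443 for the CDDO-Im genotypes and 50 for the difference of effects. Fitting the compared arrays alone gave 110 for the wild type effect, 18 for the vehicle genotypes and 0 members for the wild type effect. Array weights gave 1897, 2023 and 1477 for the first 3 comparisons and 89 for the difference of effects, with 2 members for the wild type effect and 1 for the vehicle genotypes. Without both arrays carrying acinar transcripts there were 1293 for the wild type effect, 117 for the vehicle genotypes, 411 for the CDDO-Im genotypes and 39 for the difference of effects. An adjusted p under 0.01 left 97, 109, 16, 123 and 15, with 1 member for the Nrf2 null effect and 0 for the wild type effect.

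Leaving out 1 array at a time gave 97 to 1615, 104 to 1385, 19 to 219, 151 to 464 and 15 to 46 calls. Members numbered 1 to 5 for the Nrf2 null effect and 0 to 2 for the wild type effect, and 0 to 0 in the other comparisons. The Nrf2 null count was lowest without Nrf2 null CDDO-Im replicate 3 and highest without wild type vehicle replicate 3. The wild type count was lowest without wild type vehicle replicate 1 and highest without replicate 3.

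Same-numbered arrays were not shown to be paired, with correlations of deviations between -0.30 and 0.28. The replicate block gave 1000, 323, 80, 231 and 20 calls, with 5, 1, 0, 0 and 0 members.

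Sign changes occurred only in member differences that had not passed. Lpin1 under CDDO-Im was -0.037 between genotypes with the mean of probe sets and -0.039 with array weights, and -0.49 to 0.44 with 1 array left out. Mogat1 under vehicle was -0.019 with array weights and -0.046 to 0.073 with 1 array left out. Cidec in Nrf2 null livers was 0.091 without the acinar arrays and -0.76 to 0.091 with 1 array left out, and its difference of effects was -0.27 with array weights and -0.15 to 0.71. With 1 array left out, Dgat1 under vehicle ran from -0.042 to 0.11, Plin2 under CDDO-Im from -0.047 to 0.18 and Cidec under CDDO-Im from -0.81 to 0.029. The differences of effects of Lpin2 ran from -0.20 to 0.10 and of Agpat2 from -0.23 to 0.089. The cause of these moves was not tested. Over all member results and alternatives, 920 kept direction and side of the threshold, 22 lost a call, 12 gained one and 22 changed sign.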
